A study of Saccharomyces cerevisiae with 3 samples.

Results

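The nuclear genes of the respiratory chain of budding yeast (Saccharomyces cerevisiae) were examined for methylation of histone H3 at lysine 4. They are 42 listed genes of 6002 nuclear protein-coding genes, listed by function, with no measured value in the rule. They encode the NADH dehydrogenases (3 genes), complex II (4), complex III (9), cytochrome c (2), complex IV (9) and ATP synthase with its inhibitor protein (15). All 42 were found by symbol in the RefSeq gene table for R64, the assembly behind the files' build sacCer3.

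The study mapped dimethylated (H3K4me2) and trimethylated (H3K4me3) lysine 4 by chromatin immunoprecipitation and sequencing. The series holds 3 samples of the haploid laboratory strain BY4741 in mid-log growth in the glucose-rich medium YEPD: 1 H3K4me2 library, 1 H3K4me3 library and 1 input made with no antibody. All were fixed with formaldehyde and cut with micrococcal nuclease, which digests the DNA between nucleosomes, so a stretch without nucleosomes yields few fragments whatever its modification. The data are the authors' lists of enriched regions (peaks), 2998 for H3K4me2 with 1492318 sequence tags inside them and 3714 for H3K4me3 with 1644589 tags. Total depth is unknown, and the input was not analysed here. With 1 library per mark no value has a replicate check and no test was made. Exact 95% intervals on tags take in the error of counting alone. Those on shares of genes treat the listed genes as independent draws and do not measure the error of a library. BY4741 lacks LEU2, URA3 and MET15 (listed as MET17), and no peak of either mark covered any base of these genes. HIS3, which this strain lacks in part, had H3K4me3 over 80.4% of its start.

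The respiratory chain of the inner mitochondrial membrane passes electrons from NADH and succinate to oxygen and pumps protons, and ATP synthase uses the proton gradient to make ATP. Budding yeast has no proton-pumping complex I and uses single-protein NADH dehydrogenases in its place. On glucose it mainly ferments, and many respiratory genes are held at a reduced level by glucose repression and raised by the Hap activator complex when glucose is gone. H3K4me3 is laid down by the COMPASS complex at the beginning of transcribed genes, and H3K4me2 lies further into them. Some subunits have an aerobic and a hypoxic gene, of which the hypoxic gene is repressed in oxygen.

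A gene start was called marked where 50% or more of the first 500 bp from the start codon lay under peaks, or 50% of the whole gene where it was shorter. Most respiratory chain genes carried H3K4me3 and fewer carried H3K4me2, in shares close to those of all genes of any length. H3K4me3 marked 28 of 42 starts (66.7%, exact 95% interval 50.5 to 80.4), beside 64.6% of all nuclear coding genes. H3K4me2 marked 18 of 42 (42.9%, 27.7 to 59.0), beside 43.5% of all genes. There were 17 starts under both marks (all genes 38.4%), 11 under H3K4me3 alone (26.2%), 1 under H3K4me2 alone (5.1%) and 13 under neither (30.3%). Over the whole gene, H3K4me3 covered at least 50% of 27 members (64.3%, all genes 44%) and H3K4me2 at least 50% of 19 (45.2%, all genes 39.6%). Members are shorter than all genes (median 454.5 against 1200 bp). Neither the start shares nor these whole-gene shares were matched for length. Of 24 members under 500 bp, 11 had H3K4me3 (all genes of that length 33.5%) and 4 had H3K4me2 (12.2%). From 500 to under 1000 bp, 10 of 10 had H3K4me3 (71.5%) and 7 of 10 had H3K4me2 (41.5%). The longer classes are given below. For H3K4me3 the calls were all or nothing, with 28 windows covered to 100% and 14 to 0%. For H3K4me2, 11 windows were covered to 100%, 24 to 0%, and 7 in between, from 65.4% in QCR2 to 99.8% in RIP1.

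**Figure D1:**
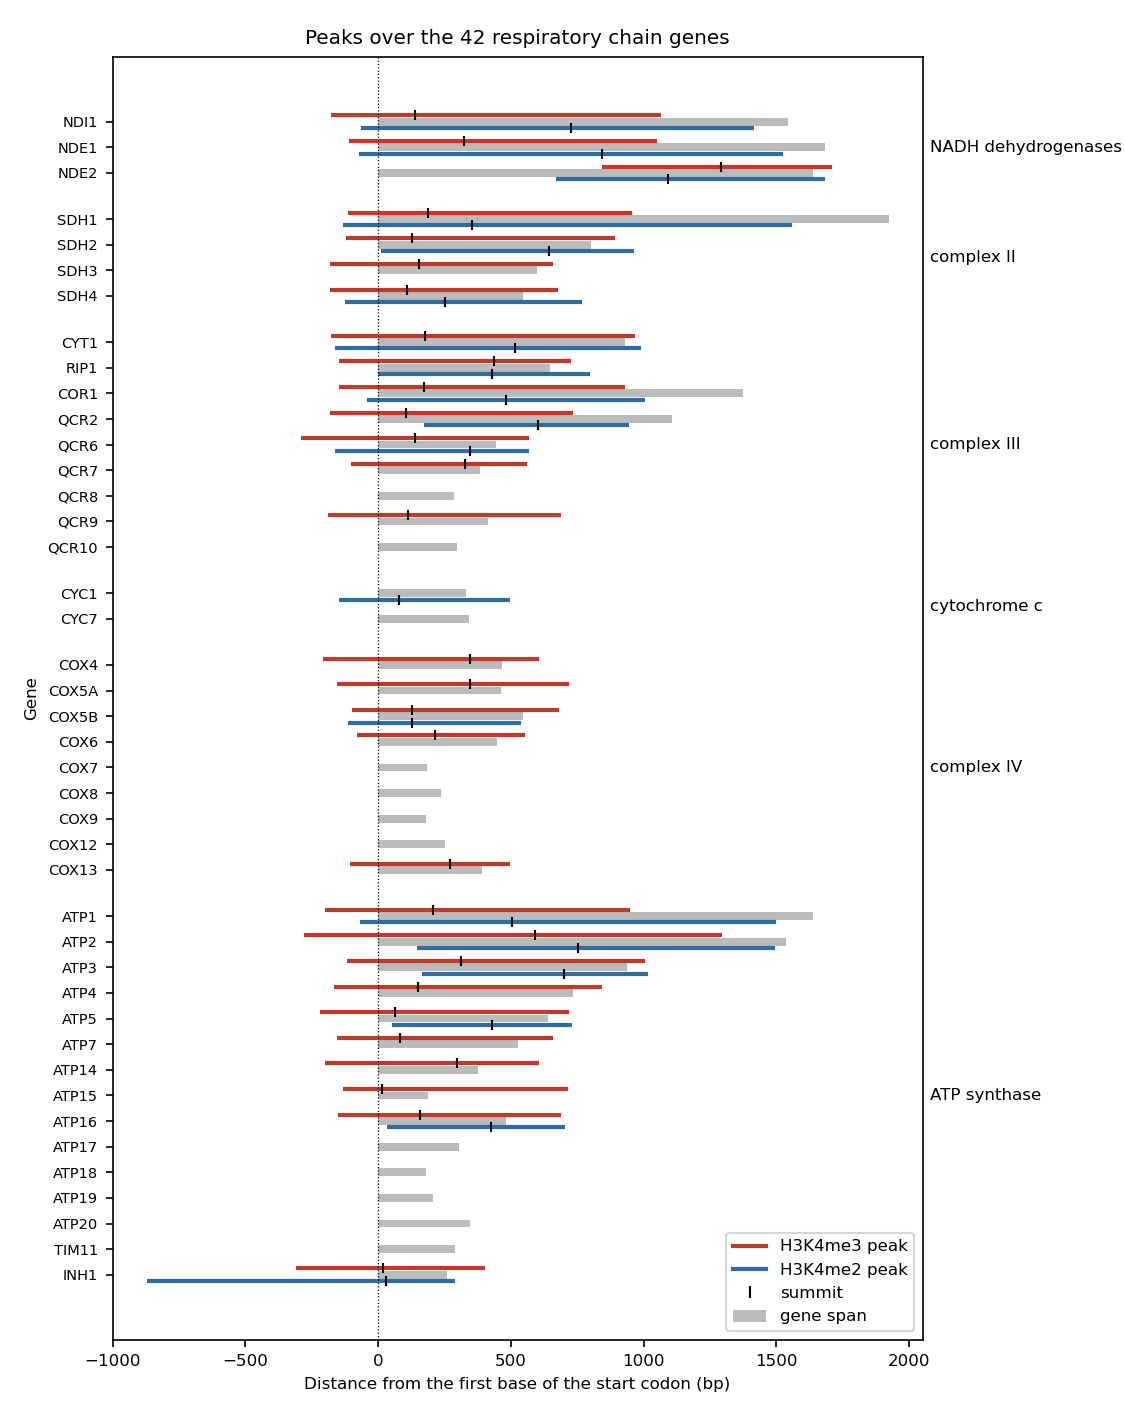
Peaks of H3K4me3 (red) and H3K4me2 (blue) over each of the 42 genes (grey bars), aligned at the first base of the start codon (x axis, bp) and grouped by complex; black ticks are peak summits. The 13 starts with neither mark are NDE2, whose peaks lie at the far end, and 12 genes of 180 to 348 bp.

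The NADH dehydrogenases are long genes with both marks at the start in NDI1 and NDE1 and neither in NDE2. NDI1 encodes the enzyme that oxidises NADH in the mitochondrial matrix. Its H3K4me3 peak had a fold enrichment of 3.35 with 584 tags, and its H3K4me2 peak one of 3.21 with 757 tags. Fold enrichment is the authors' own ratio for each peak over a background that the file headers do not name, and it was compared only within a list. NDE1, whose product oxidises cytosolic NADH from the outer face of the membrane, had 3.23-fold H3K4me3 (533 tags) and 2.71-fold H3K4me2 (753 tags). In both genes H3K4me3 covered the first part, 69.3% of NDI1 and 62.4% of NDE1, and H3K4me2 reached further, over 91.9 and 90.6%.

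NDE2, the second external NADH dehydrogenase gene (YDL085W, chromosome IV, 303211 to 304848), had its marks at the other end. Peaks covered 0% of its first 500 bp. An H3K4me3 peak (3.6-fold, 398 tags) lay from 843 to 1709 bp after the first base of the start codon, and an H3K4me2 peak (2.29-fold, 411 tags) from 669 to 1681 bp. They covered 48.5 and 59.2% of the 1638 bp gene. Neither peak touched the start window of any annotated coding gene or any base of another annotated gene. The next gene downstream, SUB2, reads in the same direction and had its own H3K4me3 peak, which began 164 bp past the end of NDE2. The H3K4me2 centre in NDE2 lay 87 bp upstream of the H3K4me3 centre (difference -87 bp), the reverse of the order in NDI1 (174.5 bp) and NDE1 (237 bp). NDE2 was the single member with a peak inside the gene that was not the peak of its start window.

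Complex II (succinate dehydrogenase), which passes electrons from succinate to ubiquinone, carried H3K4me3 at all 4 starts and H3K4me2 at 3. SDH1, the flavoprotein subunit, is the longest member at 1923 bp and had 2.87-fold H3K4me3 (404 tags) and 2.8-fold H3K4me2 (796 tags). SDH2, the iron-sulfur subunit, had 2.87-fold H3K4me3 (389 tags), below the median of 3.09 of all H3K4me3 peaks. Its H3K4me2 peak of 3.41-fold (423 tags) was the highest among the members, higher than or equal to 99.4% of the H3K4me2 list. The membrane anchors differed: SDH4 had both marks (3.05-fold H3K4me3, 2.85-fold H3K4me2), and SDH3 had H3K4me3 alone at 3.25-fold with 349 tags. The nearest H3K4me2 peak to SDH3 ended 1556 bp upstream, over LTV1.

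Complex III, the cytochrome bc1 complex that passes electrons from ubiquinol to cytochrome c, carried H3K4me3 at 7 of 9 starts and H3K4me2 at 5. Its catalytic subunit genes CYT1 (cytochrome c1) and RIP1 (the Rieske iron-sulfur protein) had both marks. CYT1 had 3.56-fold H3K4me3 with 557 tags and 3.12-fold H3K4me2 with 633 tags, against 2.84-fold (346 tags) and 2.63-fold (315 tags) in RIP1. The large core subunit genes COR1 and QCR2 also had both marks, with H3K4me3 at 3.37-fold and 3.24-fold. Of the small subunit genes, QCR6 had both (3.56-fold and 2.99-fold), QCR7 and QCR9 had H3K4me3 alone (3.28-fold and 3.14-fold), and QCR8 and QCR10 had neither. QCR8 and QCR10 are also the shortest of the complex, at 285 and 297 bp, and the span of QCR10, like that of QCR9, includes an intron.

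Complex IV (cytochrome c oxidase), which reduces oxygen, had the lowest share of H3K4me2 starts, 1 of 9, with H3K4me3 at 5 of 9. Its genes are 180 to 544 bp long. H3K4me2 marked 43.5% of all genes and 12.2% of those under 500 bp, and H3K4me3 64.6 and 33.5%. COX4, COX5A, COX6 and COX13 had H3K4me3 alone, at 2.94, 3.63, 3.38 and 3.45-fold. The number of tags was 307 in COX4, 428 in COX5A, 236 in COX6 and 207 in COX13. COX5B was the single gene of the complex with both marks. COX7, COX8, COX9 and COX12, small subunits of 180 to 252 bp, had neither mark on any base. No test of a difference between complexes was made. The median gene length was 390 bp in complex IV, 1638 bp in the NADH dehydrogenases, 699 bp in complex II and 444 bp in complex III. It was 375 bp in ATP synthase, with H3K4me2 at 6 of 15 starts, and 336 bp in cytochrome c, with 1 of 2. The part of length in these shares was not tested.

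ATP synthase carried H3K4me3 at 10 of 15 starts and H3K4me2 at 6. The alpha, beta and gamma subunits of its catalytic head, ATP1, ATP2 and ATP3, had both marks. H3K4me3 was 3.48-fold in ATP1 (589 tags), 3.36-fold in ATP2 (849 tags, the most of any member) and 3.12-fold in ATP3 (452 tags). H3K4me2 was 3.03-fold in ATP1 and ATP2 and 2.88-fold in ATP3. ATP16, the delta subunit of the central stalk, had both marks (2.99-fold and 2.69-fold). ATP15, the epsilon subunit beside it, had H3K4me3 alone at 2.68-fold with 257 tags, the lowest fold among the members.

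The peripheral stalk of ATP synthase carried H3K4me3 throughout, beside 64.6% of all genes. ATP5, the oligomycin sensitivity subunit, had both marks, at 3.54-fold H3K4me3 and 3-fold H3K4me2. ATP4 (subunit b), ATP7 (subunit d) and ATP14 (subunit h) had H3K4me3 alone. ATP14 had 4.41-fold H3K4me3 with 383 tags, the highest among the members and higher than or equal to 99.8% of the list. Per kilobase of peak, its 476 tags (exact Poisson 95% interval 429 to 526) were within the range of 303 to 539 over the 28 marked members, so its rank by fold was not its rank by tag density.

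The small membrane subunit genes of ATP synthase, of 180 to 348 bp, had no mark. Of all genes under 500 bp, H3K4me3 marked 33.5% and H3K4me2 12.2%. ATP17 (subunit f), ATP18 (subunit i/j), ATP19 (subunit k), ATP20 (subunit g) and TIM11 (subunit e) were at 0% for both marks. Subunits e and g are the ones that hold the enzyme in dimers. INH1, which encodes the inhibitor that stops the enzyme from hydrolysing ATP, is of like size at 258 bp and had both marks, with 3.34-fold H3K4me3 (271 tags) and 2.76-fold H3K4me2 (439 tags). Its H3K4me2 peak ran from -871 to 291 bp relative to the start codon, so most of that peak lay upstream of INH1, towards LYS20, whose end is 455 bp away.

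**Figure D2:**
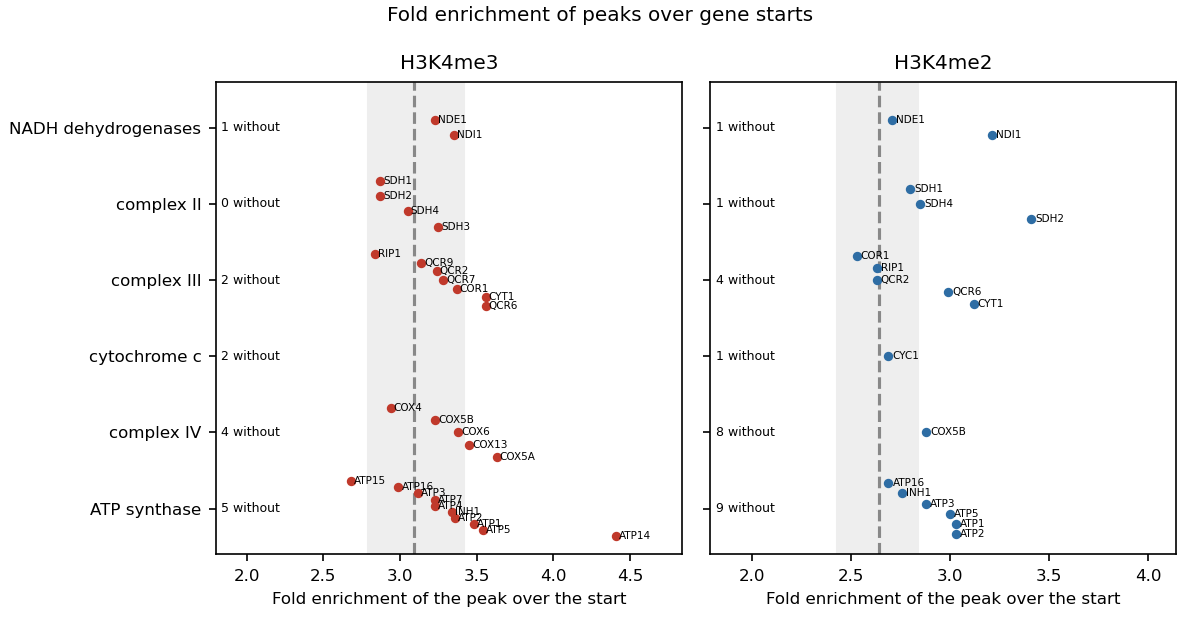
Fold enrichment (x axis, the authors' ratio per peak) of the peak over each marked start, by complex, for H3K4me3 (left) and H3K4me2 (right); the dashed line is the median of the whole list and the grey band its quartiles. ATP14 stands highest for H3K4me3 at 4.41 and SDH2 for H3K4me2 at 3.41, and the number of genes without a marked start is given at the left of each row.

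Among marked starts, members lay above the median of their list more often than all marked starts did. For H3K4me3, 21 of 28 members had a fold above the list median of 3.09, beside 52.4% of all marked starts. Their median was 3.25 (range 2.68 to 4.41), beside 3.12 over the 3880 marked starts of all genes. For H3K4me2, 15 of 18 lay above the list median of 2.64, beside 51.6% of all marked starts, with a median of 2.87 (range 2.53 to 3.41) beside 2.66. These differences were not tested. By tags per kilobase of peak the medians were 408 in members and 410 in all genes for H3K4me3, and 415 and 430 for H3K4me2, so the higher folds had no counterpart in tag density.

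Among members, unmarked starts lay in the shortest genes, apart from NDE2. Of all genes, H3K4me3 marked 33.5% under 500 bp and 68.6 to 71.5% in the longer classes. H3K4me2 marked 12.2% under 500 bp and 41.5 to 54.6% in the longer classes. The 17 members with both marks had a median length of 930 bp, the 11 with H3K4me3 alone 447 bp and the 13 with neither 285 bp. Over all genes the medians were 1395, 1041 and 987 bp. Of the 15 members under 375 bp, 2 had H3K4me3 (all genes of that length 25%) and 2 had H3K4me2 (9.47%). Of the 27 members of at least 375 bp, 26 had H3K4me3 (all genes of that length 68.6%) and 16 had H3K4me2 (47%). In the narrow class from 375 to under 500 bp, 9 of 9 members had H3K4me3 beside 47.1% of 344 genes, and 2 of 9 had H3K4me2 beside 16.6%. The split at 375 bp was chosen after the values were seen, as the shortest member longer than every unmarked member under 500 bp. By that choice no member from 375 to under 500 bp could lack both marks. No conclusion is drawn from the shares on either side of it beside those of all genes. ATP20 at 348 bp is the longest unmarked short member and ATP14 at 375 bp the next marked one. In the class from 500 to under 1000 bp 10 of 10 had H3K4me3 (all genes 71.5%) and 7 of 10 had H3K4me2 (41.5%). Of the 2 members from 1000 to under 1500 bp, both had H3K4me3 (68.6%) and H3K4me2 (54.6%). Of the 6 members of 1500 bp and over, 5 had H3K4me3 (70.1%) and 5 had H3K4me2 (50.7%), with NDE2 the exception. Of all 24 members under 500 bp, 11 had H3K4me3 (33.5%) and 4 had H3K4me2 (12.2%).

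**Figure D3:**
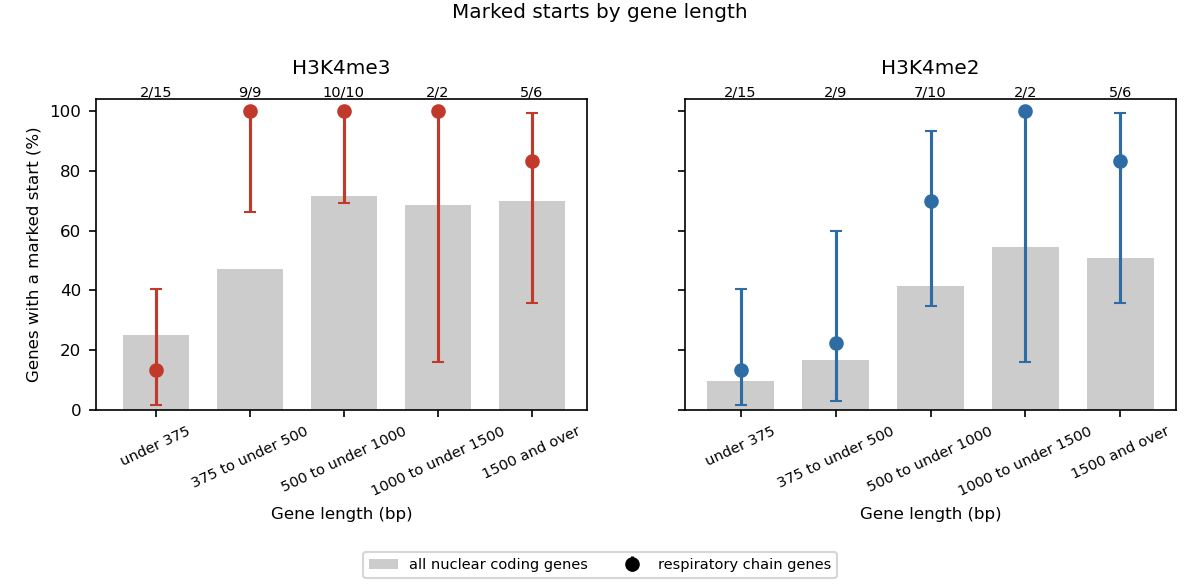
Share of genes with a marked start (y axis, %) by gene length (bp) for H3K4me3 (left) and H3K4me2 (right); grey bars are all nuclear coding genes, points the respiratory chain genes with exact 95% intervals, and the fractions above give marked members of all members. Members under 375 bp were marked in 2 of 15 for either mark, and those from 375 to under 500 bp in 9 of 9 for H3K4me3 and 2 of 9 for H3K4me2. The limit at 375 bp was set from the members' own values, so the shares and intervals beside it were shaped by that choice.

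The 12 unmarked short genes (QCR8, QCR10, CYC7, COX7, COX8, COX9, COX12, ATP17, ATP18, ATP19, ATP20 and TIM11) were 180 to 348 bp long. The narrowest H3K4me3 peak in the list was 382 bp wide and the narrowest H3K4me2 peak 443 bp, both longer than any of these genes. The part of peak width in these missing calls was not tested. Peaks of neighbours came close in some cases. Counting NDE2 as well, the nearest H3K4me3 peak outside the gene was 74 to 2870 bp away (median 508 bp), and 6 of the 13 had one within 500 bp. The H3K4me3 peak nearest to ATP19 (2.98-fold) lay over the start of BRX1, 74 bp downstream, and that nearest to COX9 (2.76-fold) lay over the start of IDP1, 209 bp upstream.

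Of the 28 H3K4me3 peaks over marked members, 1 also marked the start of another gene, beside 13.9% of all marked starts. Of the 18 H3K4me2 peaks 0 did, beside 7.46%. These differences were not tested, and the peaks were not matched for width. The shared peak was that of ATP15, which also marked MDL2, the next gene in the same direction. All 28 H3K4me3 summits and all 18 H3K4me2 summits lay within the member's own span (all marked starts 91.6 and 95.5%). By layout, 16 members have a divergent upstream neighbour and 26 a neighbour in the same direction, and the starts with neither mark numbered 4 and 9. Of all genes of any layout, 30.3% had neither mark. Shares of all genes by layout are not given here, so the layouts are not compared.

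Along the members, H3K4me3 began ahead of the start codon and H3K4me2 lay further in. All 28 H3K4me3 peaks began upstream of the start codon (all genes 91.5%), at a median position of -159 bp (range -308 to -78). Of the 18 H3K4me2 peaks, 11 began upstream (45.7%) and 7 within the gene, at a median position of -66 bp. The H3K4me3 summit lay at a median of 164.5 bp after the start codon (range 16 to 591), beside 294.5 bp over all marked starts. The H3K4me2 summit lay at 454.5 bp (range 30 to 843), beside 564 bp. Peaks over members were also narrower, with medians of 874 bp for H3K4me3 (all marked starts 1005.5 bp) and 922 bp for H3K4me2 (1114 bp). Members are shorter genes, with a median of 454.5 bp beside 1200 bp over all genes. Summit positions and peak widths were not matched for length, and the part of length in these differences was not tested.

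In the 17 members with both marks, the H3K4me2 summit lay downstream of the H3K4me3 summit in 16 (all genes 87.1%), by a median of 299 bp (range -7 to 587). The largest distances were 587 bp in NDI1, 519 bp in NDE1 and 516 bp in SDH2. The summits were nearly at the same place in COX5B (3 bp), INH1 (10 bp) and RIP1 (-7 bp). COX5B and INH1 were also the members whose H3K4me2 peak began and ended upstream of the H3K4me3 peak, with differences of -18 and -142 bp in COX5B and -563 and -112 bp in INH1. SDH1 had an H3K4me2 peak that was wider on both sides, with edges at -19 and 605 bp relative to those of H3K4me3. Over the 18 members with any base of both marks, the centre of the covered bases within the gene lay further downstream for H3K4me2 in 12 and upstream in 2, and coincided in 4, with a median distance of 21.25 bp. In short genes both marks can cover the whole span, which sets this distance to 0; over all genes it was 127 bp.

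**Figure D4:**
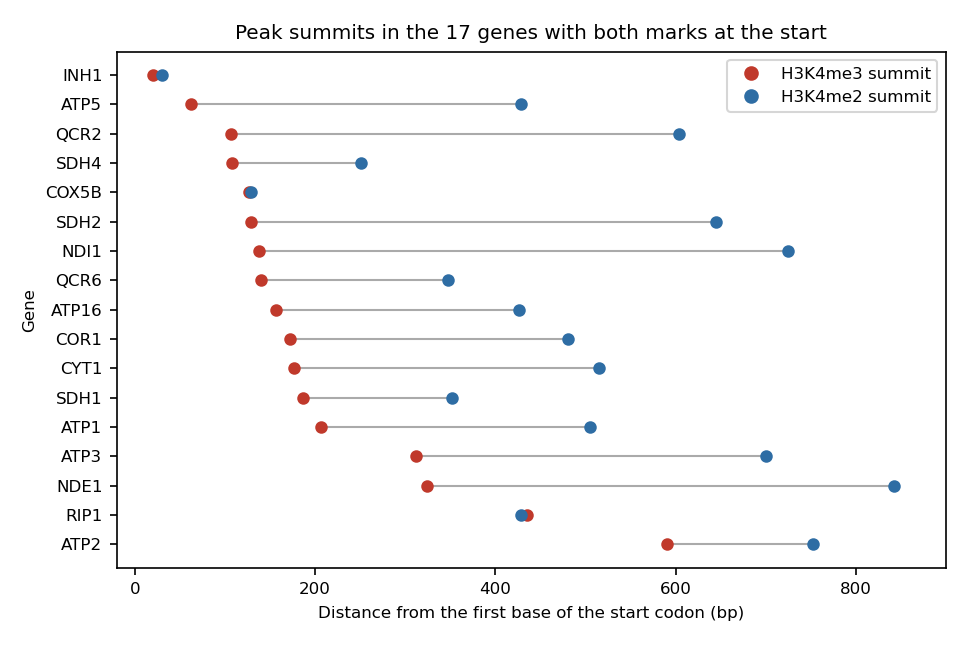
Position of the peak summits (x axis, bp from the first base of the start codon) in the 17 genes with both marks at the start, with H3K4me3 in red, H3K4me2 in blue and a line joining the summits of a gene. The blue point lies to the right in 16 of 17 genes, and the points nearly coincide in COX5B, INH1 and RIP1.

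The isoform genes of complex IV subunit V differed in H3K4me2. COX5A (YNL052W, chromosome XIV, 531725 to 532186) is the aerobic gene and COX5B (YIL111W, chromosome IX, 155222 to 155765), which has an intron, the hypoxic gene. H3K4me3 covered 100% of both starts. It was 3.63-fold with 428 tags in COX5A and 3.23-fold with 334 tags in COX5B, or 491 tags per kilobase of peak (exact Poisson 95% interval 445 to 540) against 428 (384 to 477). These intervals overlap, and they leave out the error of the immunoprecipitation. H3K4me2 covered 100% of the COX5B start (2.88-fold, 240 tags) and 0% of the COX5A start. The COX5B peak had a score of 56.86, near the lowest of the list (50.02), and with peaks of a score of at least 100 it was gone. The H3K4me2 peak over the gene before COX5A, MSG5, ended 140 bp short of COX5A.

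The cytochrome c genes had no H3K4me3 and differed in H3K4me2 in the other direction. CYC1 (YJR048W, chromosome X, 526335 to 526664) encodes the main aerobic isoform and CYC7 (YEL039C, chromosome V, 79636 to 79977) the hypoxic isoform. H3K4me2 covered 100% of CYC1, in a peak of 2.69-fold with 255 tags and a score of 107.01 that ran from -146 to 498 bp relative to the start codon. CYC1 was the 1 member with H3K4me2 alone, and its nearest H3K4me3 peak lay 1008 bp downstream over the start of UTR1. CYC7 had neither mark on any base, although both its neighbours carried H3K4me3 and H3K4me2 at their starts. The H3K4me2 peak over the start of UTR2 (2.76-fold, 810 tags) came within 66 bp of CYC7, and that over UTR4 (3.15-fold) within 357 bp. In complex IV the hypoxic gene thus carried the additional H3K4me2 call and in cytochrome c the aerobic gene did.

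**Figure D5:**
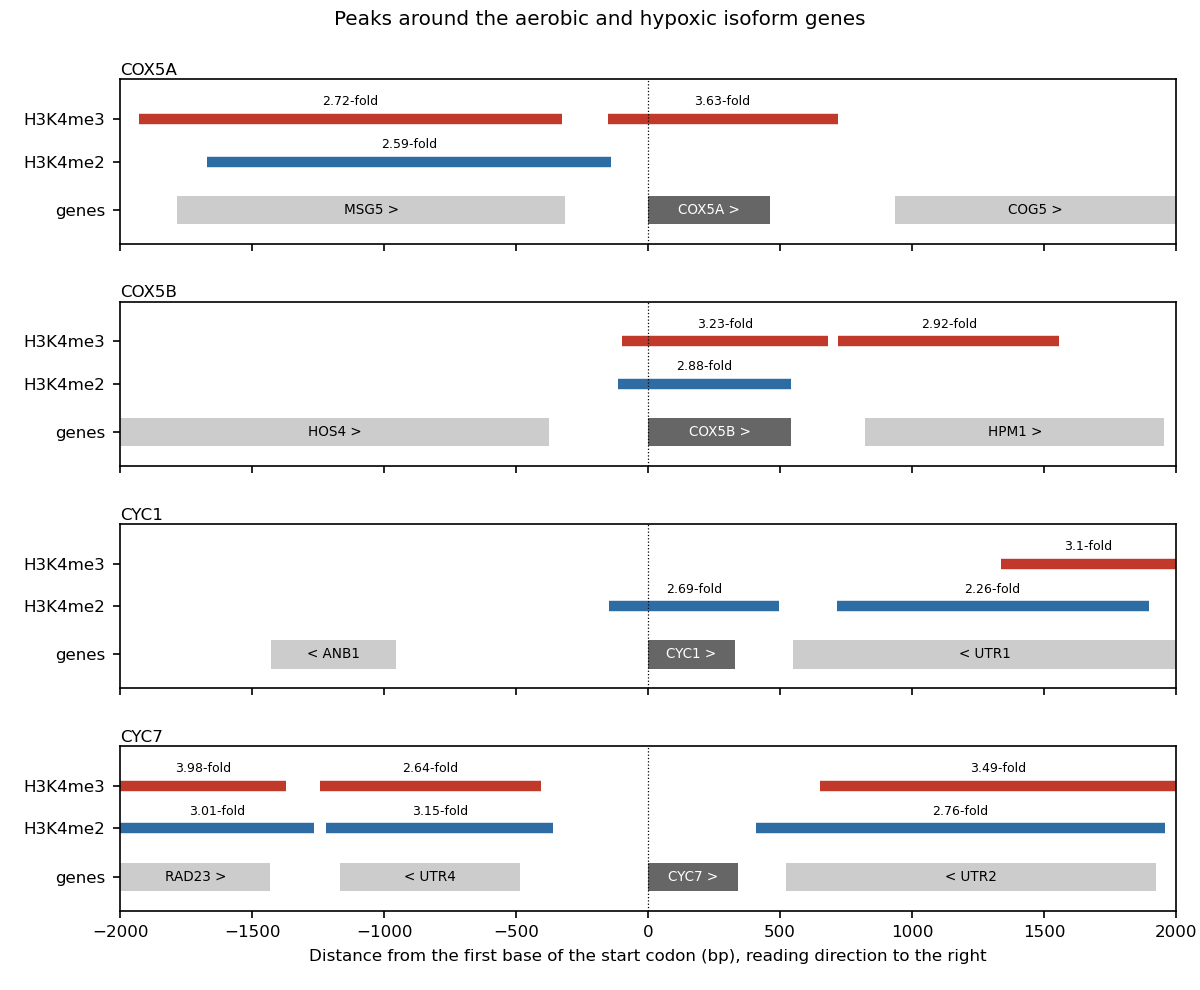
Peaks of H3K4me3 (red) and H3K4me2 (blue) with their fold enrichment around COX5A, COX5B, CYC1 and CYC7; the x axis is the distance from the first base of the start codon in bp, and arrows give the direction of each coding gene relative to the named gene. H3K4me2 covers COX5B and CYC1, H3K4me3 covers COX5A and COX5B, and CYC7 lies in a gap between marked neighbours.

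Other genes with aerobic and hypoxic forms gave further patterns. HYP2, the aerobic gene of translation factor eIF5A, had H3K4me3 alone at 4.4-fold with 486 tags. ANB1, its hypoxic form and the divergent neighbour of CYC1, had neither mark. Of the ADP/ATP carriers, PET9, the main aerobic gene, had both marks (3.71-fold H3K4me3 with 805 tags, 2.99-fold H3K4me2 with 612 tags). AAC3, the hypoxic form, and AAC1, a minor form, had H3K4me2 alone, at 3-fold and 2.77-fold. HMG1 and HMG2, forms of the enzyme that commits carbon to sterols, both had H3K4me3 alone (3.15-fold and 3.08-fold). Among genes with a raised level in hypoxia, HEM13 (heme synthesis) and OLE1 (fatty acid desaturation) had both marks. ROX1, which encodes the repressor of hypoxic genes, had both as well (3.17-fold H3K4me3, 3.33-fold H3K4me2). Over the 7 genes of this list outside the carriers, 6 had H3K4me3 (all genes 64.6%) and 3 had H3K4me2 (43.5%).

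The phosphate carrier genes differed in H3K4me3. MIR1, the main carrier, had both marks at 3.96-fold H3K4me3 and 3.74-fold H3K4me2. PIC2, the minor one, had H3K4me2 alone at 3.03-fold with 688 tags. All 5 carrier genes had H3K4me2 and 2 had H3K4me3, at lengths of 903 to 957 bp; all genes from 500 to under 1000 bp had them in 41.5 and 71.5%. Of the other enzymes that feed the chain, GUT2 (glycerol 3-phosphate dehydrogenase) and DLD1 (D-lactate dehydrogenase) had both marks, and CYB2 (L-lactate dehydrogenase) had H3K4me2 over 80.6% of its start and no H3K4me3 there. H3K4me3 covered 31.6% of CYB2 as a whole. The H3K4me3 peak of GUT2 (3.42-fold, 1859 tags) also marked the starts of 2 other genes.

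Over 91 other genes of the pathway in 10 lists, H3K4me3 marked 58 (63.7%, all genes 64.6%) and H3K4me2 marked 37 (40.7%, all genes 43.5%). The 4 lists of assembly factors, with paralogs and regulators, hold 51 of these genes, of which 34 had H3K4me3 (66.7%) and 15 had H3K4me2 (29.4%), at a median length of 549 bp. Of 11 genes of ubiquinone synthesis 8 had H3K4me3 and 7 had H3K4me2, with COQ2 (3.44-fold) and COQ9 (3.19-fold) highest, each in a peak shared with another start. COQ8 and COQ11 were the longest of the list without H3K4me3. Of 8 assembly genes of complex III and cytochrome c, 7 had H3K4me3 and 4 had H3K4me2. The heme lyase genes CYC3 (3.45-fold) and CYT2 (3.26-fold), which attach heme to cytochrome c and cytochrome c1, were highest, and CBP6 had neither mark. Unlike CYC1 and CYC7, CYC3 thus carried H3K4me3, together with 3.21-fold H3K4me2. CYC3 is longer, at 810 bp against 330 bp for CYC1 and 342 bp for CYC7. H3K4me3 marked 71.5% of all genes from 500 to under 1000 bp and 33.5% of those under 500 bp. The part of length in this difference was not tested.

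Of 25 genes for the assembly of complex IV, which insert its heme and copper or act on its subunits, 17 had H3K4me3 (68%, all genes 64.6%) and 8 had H3K4me2 (32%, all genes 43.5%). MSS51, which acts in the translation of Cox1 (3.97-fold), and COX20 (3.89-fold) were highest, each in a peak shared with another start, and COX10 and CMC2 were the longest without a marked start. H3K4me3 covered 38.8% of the COX10 start and H3K4me2 36%, both below the limit. Over COX10 as a whole they covered 41.8 and 61.0%. Neither mark covered any of CMC2. Over all lists, 13 of the 27 genes under 500 bp had H3K4me3 (all genes of that length 33.5%) and 1 had H3K4me2 (12.2%). That gene, named after its values were seen, was STF2, listed with the ATP synthase regulators, with H3K4me2 alone at 2.35-fold in a peak shared with another start. Of the 11 genes for ATP synthase assembly and regulation 5 had H3K4me3 (all genes 64.6%). ATP22 (3.04-fold) and ATP10 (2.95-fold) were highest and ATP25 and INA22 the longest without. STF2 was the 1 gene of that list with H3K4me2 (all genes 43.5%).

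Translational activators bring single mitochondrial mRNAs to the ribosome. H3K4me3 marked 4 of their 11 genes (all genes 64.6%) and H3K4me2 marked 3 (all genes 43.5%), at a median length of 1557 bp. CBP1 (3.51-fold) and AEP1 (3.37-fold, in a peak shared with another start) were highest, and PET309 (2898 bp) and PET111 (2403 bp), activators for COX1 and COX2 mRNA, had neither mark at the start. Of the 6 activator genes of 1500 bp and over, 2 had H3K4me3 and 1 had H3K4me2, beside 70.1 and 50.7% of all genes of that length. Of the supercomplex factors, RCF2 had both marks, RCF1 H3K4me3 alone and COX26 (201 bp) neither. Of 7 assembly factors and paralogs of complex II, 5 had H3K4me3 (all genes 64.6%) and 2 had H3K4me2 (43.5%). SDH5, SDH7 and SDH8 had H3K4me3 alone, SDH6 (240 bp) neither. The paralogs of the membrane anchors, SHH3 and SHH4, had both marks, and the paralog of SDH1, YJL045W (SDH9), had neither over any base, in contrast to SDH1 with both.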

How the data were processed

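Peak lists of 1 H3K4me2 and 1 H3K4me3 library were analysed; titles gave the groups. The tools and build were MACS 1.4.2 (which calls peaks), CASAVA 1.8.2 and sacCer3, per the submitters' processing notes. The sources used here name no aligner, settings or control. Per the file headers, the authors deposited for each peak its start, end, summit, the number of tags (a count, not normalised), a fold enrichment (a ratio) and a value headed as p. The authors deposited that last column as a peak score with no stated scale. As its values exceed 50, it was taken to be -10 times log10 of p. Positions were taken as 1-based.

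Genes came from RefSeq R64, with strand read from the systematic name; 96.4% of lengths are multiples of 3, so spans run from start to stop codon, introns included. Coverage, summits and edges were computed with scipy 1.17.1, pandas 2.3.3 and numpy 2.4.6 in Python 3.11.15, figures with matplotlib 3.10.9, and the interval functions were tested on simulated data. Intervals are exact at 95% (Clopper-Pearson or Poisson) and treat genes or tags as independent. The peak of a start is the one that overlaps its window most. The rule for members uses function alone, but the members, the lists and the length classes (limits at 500, 1000 and 1500 bp) were chosen with earlier results of these data known. Named were all members, the 2 highest in H3K4me3 fold and the 2 longest without H3K4me3 of each list, and every gene of lists of up to 7. Promoter letters were planned and not analysed here. Alternatives changed the peak threshold, peak width, window and overlap.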

Additional observations from a re-analysis of the deposited data

How the results depend on the processing

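Of 194 recomputed values, 169 stayed within 1.5 times of the reported value and 25 moved further. Reversal meant a change of sign and occurred in 0. Most values are counts or differences reported as 0, which cannot change sign, so no conclusion is drawn from that. With peaks of 500 bp around the summit, H3K4me2 marked 10 members, 0 NADH dehydrogenases, 3 genes of complex III and 3 of ATP synthase. Both marks then lay at 9 starts and H3K4me3 alone at 18, the median distance of centres was 207.25 bp, and the COX5A minus COX5B difference in H3K4me3 coverage was 4.24 percentage points. With a window reaching 500 bp to either side of the start codon, H3K4me2 marked 11 members, 3 of complex III and 2 of ATP synthase, with both marks at 10 starts and H3K4me3 alone at 18. In that window COX5A minus COX5B was 23.1 points for H3K4me3 and -25.5 for H3K4me2, and CYC1 minus CYC7 was -9.6 and 41 points. With peaks whose fold was no lower than their list median, both marks lay at 10 starts, H3K4me2 alone at 5, H3K4me3 at 1 gene of complex II and H3K4me2 at 2 of complex III, and the centre distance was 54.25 bp. With a score of at least 100, H3K4me2 marked 0 genes of complex IV, and COX5A minus COX5B was 0 points. Over the whole gene, H3K4me2 alone marked 3 members. The cause was not tested. The counts in the report of H3K4me3 and of neither mark over all members stayed within 1.5 times under every alternative run. Tags in peaks limit precision, and total depth is unknown. No paired analysis was possible because each mark has 1 library.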
